A study of Mus musculus with 10 samples.

Results

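The ATF4 stress-response genes were followed at the mRNA level in mouse macrophages given either of 2 ligands of Toll-like receptor TLR2. The 10 genes were taken by name: Atf4, Ddit3, Trib3, Asns, Psat1, Slc3a2, Slc7a5, Chac1, Sesn2 and Ddit4. All 10 were among the 11617 genes of the deposited table, and all 10 were among the 11407 genes that reached a mean of 1 CPM (read counts put on a common library size by the authors) and were tested. Bone-marrow-derived macrophages of C57BL/6 mice were cultured in DMEM (10% fetal bovine serum) with GM-CSF, a myeloid growth factor, at 50 ng/ml, and all groups share this culture. The age of the mice is written as 7 weeks in one label and as 6 weeks in another. The control cells received no ligand and carry no time label. In the other 4 groups AmTARS was given for 1 h, AmTARS for 3 h, Pam3CSK4 for 1 h or Pam3CSK4 for 3 h. AmTARS, which the labels do not spell out, is known as an enzyme of the gut bacterium Akkermansia muciniphila, its threonyl-tRNA synthetase, and Pam3CSK4 is a synthetic lipopeptide that activates TLR2 together with TLR1. Pam3CSK4 was used at 10 ng/ml, whereas the AmTARS dose is labelled 0.5 in the unit mm, so the doses cannot be put on one scale. Each of the 5 groups held 2 libraries (n = 2), and no label says that these came from separate cultures or animals, so p-values measure only the spread between these libraries, which may be technical.

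ATF4 is a basic leucine zipper transcription factor at the centre of the integrated stress response. Kinases that sense amino acid shortage, unfolded proteins, viral RNA or lack of haem phosphorylate the initiation factor eIF2, which slows general translation and favours translation of the Atf4 mRNA. ATF4 protein, often paired with a C/EBP factor, then raises genes for amino acid uptake and synthesis, for redox balance and for feedback on the pathway and on the growth kinase complex mTORC1. In macrophages this response is known for its links to inflammatory signalling and to amino acid supply. Because ATF4 is set largely by translation, its mRNA level is not a measure of its protein.

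ATF4 with a C/EBP partner binds a composite element, the C/EBP-ATF response element, whose core was searched as TGATGNAA on both strands. Of the 10 genes, 9 had an entry in the RefSeq promoter table (GRCm38.p6), in 10 windows of 300 bases that run from 250 before to 50 after a start site. The core was found in 3 of these 10 windows, those of Asns, Chac1 and Trib3, and in 1304 of 32851 windows of all genes (3.97%). Read with 1 more free letter, TGATGNAAN, it was in the same 3 windows and in 3.95% of all windows. A free letter fits any base, so this reading can lose only matches at a window's edge and is no second test. The parts of the 3 windows up to the match or the start site are printed because they hold the letters of the element by which ATF4 is known to act, with the core in capitals and the strand that of the gene. The Asns stretch is chr6:7693225-7693459 (minus strand), with the core as TGATGAAA from base -23 of the RefSeq start, which lies inside the gene as GENCODE M21 draws it. The Chac1 stretch is chr2:119350992-119351241 (plus strand), with the core on the opposite strand, as TGATGCAA, from base -193. The Trib3 stretch is chr2:152344039-152344310 (minus strand), with the core on the opposite strand, as TGATGTAA, from base 15 after the RefSeq start. This match lies before the gene as GENCODE M21 draws it, which starts at 152344032.
Asns: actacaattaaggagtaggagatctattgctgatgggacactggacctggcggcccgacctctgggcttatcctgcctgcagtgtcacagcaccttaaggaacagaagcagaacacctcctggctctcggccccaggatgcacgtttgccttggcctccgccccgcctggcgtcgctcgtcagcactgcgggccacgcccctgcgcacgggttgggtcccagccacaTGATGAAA
Chac1: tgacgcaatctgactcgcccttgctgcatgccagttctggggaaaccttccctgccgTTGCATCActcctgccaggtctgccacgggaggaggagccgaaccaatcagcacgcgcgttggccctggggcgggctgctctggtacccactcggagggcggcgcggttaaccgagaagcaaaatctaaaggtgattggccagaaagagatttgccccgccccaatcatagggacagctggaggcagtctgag
Trib3: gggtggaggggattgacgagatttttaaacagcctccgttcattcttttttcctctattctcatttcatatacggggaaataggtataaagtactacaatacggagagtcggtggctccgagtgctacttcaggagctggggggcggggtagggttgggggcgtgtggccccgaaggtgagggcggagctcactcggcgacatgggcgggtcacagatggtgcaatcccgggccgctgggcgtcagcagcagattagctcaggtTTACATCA

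A match of letters is a description and does not show that ATF4 bound there. At 3 h with Pam3CSK4 these 3 genes were higher by 0.77 (Chac1), 0.31 (Trib3) and 0.24 (Asns) on the log2 scale. In the genes with a window and no match, the changes were 0.58 (Ddit4), 0.57 (Atf4), 0.43 (Slc3a2), 0.30 (Ddit3), -0.07 (Sesn2) and -0.23 (Psat1).

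Reads in the listed genes numbered 27398791 to 37559810 per library, and the 2 libraries of a group correlated at 0.998 across genes in each group. Summed over all genes in the table, CPM came to 959639 and 960837 for control and to between 998260 and 1037796 for treated libraries. Relative to control, genes with short transcripts tended to be higher after treatment and genes with long ones lower. Spearman's rho of the change with length over 11367 genes (no independent replicates of one another) was -0.706 for AmTARS at 1 h, -0.638 for AmTARS at 3 h, -0.699 for Pam3CSK4 at 1 h and -0.485 for Pam3CSK4 at 3 h. The ATF4 genes are short: their longest transcripts have a median of 2022 nt (969 to 3517 nt), against 3405 nt over all matched genes. Changes are therefore given as deposited and again with the trend on length and GC content taken out of every library, here called the length and GC correction. Changes are log2 fold changes on the log2(CPM + 1) scale, which understates changes of low genes, with the moderated SE of limma. Adjusted p is limma's p with Benjamini-Hochberg adjustment over all genes tested, and a gene is said to rise or fall at an adjusted p below 0.05. Macrophage markers were present in full (9 of 9, summed 49509 to 54100 CPM, with Lyz2, Csf1r and Adgre1 at means of 45527, 2058 and 751). Marrow cultures in GM-CSF are known to hold dendritic cells and granulocytes too. Of 7 dendritic cell markers 2 were listed, Itgax and Ccr7 at means of 56.1 and 8.10 CPM (summed 59.4 to 69.1 CPM). Flt3, Zbtb46, Cd209a, Dpp4 and Xcr1 were not. Of 8 lymphoid, mast and red cell markers 1 was listed, Cpa3 at 4.27 CPM. Of 8 neutrophil and granulocyte markers 7 were listed, and Ly6g was not. S100a9, Ngp and S100a8 had means of 867, 500 and 487 CPM. Camp, Mpo, Elane and Retnlg had means of 40.8, 13.2, 9.85 and 5.99 CPM. The summed level of the 7 moved with treatment. It was 1398 to 1486 CPM in control, and 1885 to 1943 and 1884 to 1991 with AmTARS at 1 h and 3 h. With Pam3CSK4 it was 1874 to 2240 at 1 h and 2078 to 2461 at 3 h. The part of these markers in the results on the ATF4 genes was not tested.

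**Figure D1:**
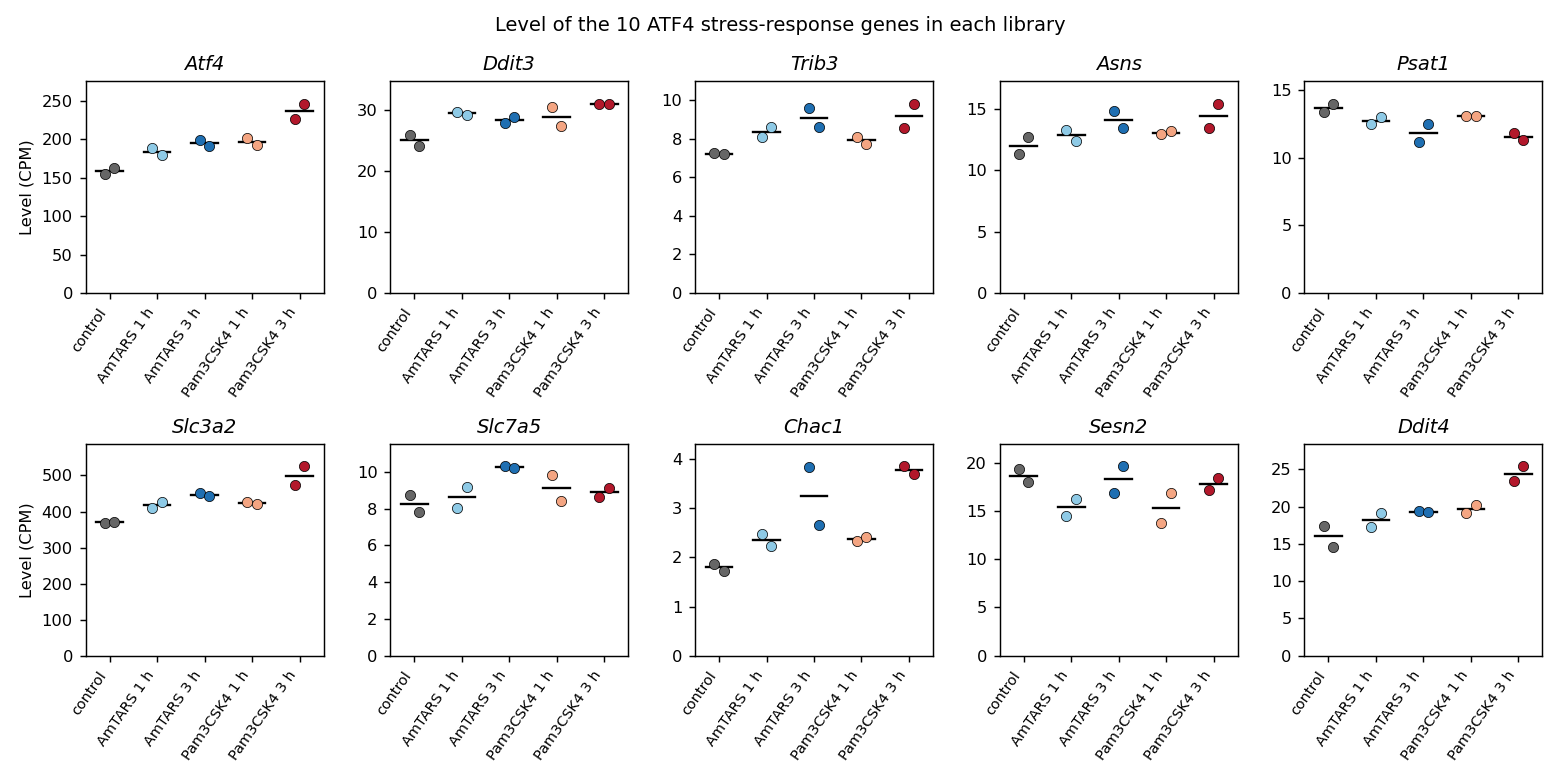
Level of each of the 10 genes (CPM, linear axes from 0) in each of the 10 libraries, by group; points are libraries and horizontal lines are group means. The means of Atf4, Slc3a2, Ddit4 and Chac1 are highest with Pam3CSK4 at 3 h, that of Slc7a5 with AmTARS at 3 h, that of Psat1 in control, and those of Sesn2 are lowest at 1 h.

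The levels of the 10 genes spanned a wide range. Per kilobase of the longest transcript, the mean over all libraries was 153 CPM for Slc3a2, 96.1 for Atf4, 29.4 for Ddit3 and 11.1 for Ddit4. It was 6.59 for Asns, 4.92 for Sesn2, 4.82 for Psat1, 4.11 for Trib3, 2.57 for Slc7a5 and 1.65 for Chac1. Atf4 was thus above 93.4% of the genes tested in CPM and Slc3a2 above 97.6%, while Chac1 was above 10.1%. Chac1 rested on 62 to 142 reads per library, and Slc3a2 on 11483 to 18904. The read counts limit what can be seen for Chac1, Trib3 and Slc7a5 more than for the abundant genes.

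Atf4 itself (chromosome 15, 80255184 to 80257541, mm10, protein coding) rose in each treated group. It stood at 155 and 162 CPM in the control libraries, 188 and 179 with AmTARS at 1 h, 199 and 191 with AmTARS at 3 h, 201 and 192 with Pam3CSK4 at 1 h, and 226 and 246 with Pam3CSK4 at 3 h. Each treated library lay above both control libraries, and both Pam3CSK4 3 h libraries lay above all others. The log2 fold change against control was 0.21 (SE 0.05, adjusted p = 0.00343) and 0.30 (SE 0.05, adjusted p = 2.19e-04) for AmTARS at 1 h and 3 h, and 0.31 (adjusted p = 6.65e-05) and 0.57 (adjusted p = 2.20e-08) for Pam3CSK4. After the length and GC correction these changes were 0.06, 0.16, 0.12 and 0.44, and the first was no longer called (adjusted p = 0.387). The AmTARS 1 h call was also lost without AmTARS 1 h replicate 2 (0.17, adjusted p = 0.0536) and without control replicate 2 (0.17, adjusted p = 0.0601). The other 3 calls held under each of the 23 alternatives that were run. In bulk samples such as these, more cells with the mRNA and more mRNA per cell cannot be told apart.

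Ddit3 and Trib3 act downstream of ATF4 on its own pathway: Ddit3 encodes CHOP, a C/EBP-family factor linked to cell death under long stress, and Trib3 a pseudokinase that restrains AKT and ATF4. Ddit3 (chromosome 10, 127290774 to 127296288) was at 25.9 and 24.1 CPM in control, 29.7 and 29.2 with AmTARS at 1 h, 27.9 and 28.9 at 3 h, 30.4 and 27.3 with Pam3CSK4 at 1 h, and 31.0 and 30.9 at 3 h. Each treated library was above both control libraries, with little order among the treated groups. The changes were 0.23, 0.18, 0.20 and 0.30 (SE 0.07 each), all past the threshold (adjusted p from 8.40e-04 to 0.0368). Ddit3 has the shortest transcript of the 10 genes, 969 nt, and after the length and GC correction none of the 4 changes was called, at 0.01, -0.01, -0.08 and 0.06. The Pam3CSK4 3 h call was lost under that setting alone, of 23 alternatives. With equal totals over the listed genes, the calls of AmTARS at 1 h and 3 h and Pam3CSK4 at 1 h were lost. The changes were then 0.16, 0.11 and 0.13 (adjusted p = 0.0576, 0.181 and 0.106). The AmTARS 3 h call was lost with no intensity trend too (adjusted p = 0.0575). The AmTARS 1 h call was also lost without AmTARS 1 h replicate 2 or control replicate 3 (adjusted p = 0.0611 and 0.102), and the Pam3CSK4 1 h call without Pam3CSK4 1 h replicate 1 or control replicate 3 (adjusted p = 0.229 and 0.155). The AmTARS 3 h call was lost without either of its libraries or either control library (adjusted p from 0.0528 to 0.242). The 3' end of Ddit3 overlaps the gene Mars on the other strand, and whether the counting used strand is not given in the sources used here.

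Trib3 (chromosome 2, 152337422 to 152344032) was at 7.23 and 7.18 CPM in control, 8.06 and 8.57 with AmTARS at 1 h, 9.57 and 8.59 at 3 h, 8.07 and 7.74 with Pam3CSK4 at 1 h, and 8.55 and 9.80 at 3 h. It rose with both ligands at 3 h, by 0.30 (SE 0.09, adjusted p = 0.0140) for AmTARS and 0.31 (SE 0.09, adjusted p = 0.00765) for Pam3CSK4. At 1 h it did not pass, at 0.18 and 0.12 (adjusted p = 0.113 and 0.282). With length and GC corrected, the 3 h changes were 0.14 and 0.16, and neither was called (adjusted p = 0.246 and 0.128). The AmTARS call was also lost without AmTARS 3 h replicate 1 (0.23, adjusted p = 0.168) or either control library (adjusted p = 0.0678 and 0.0639), and the Pam3CSK4 call without Pam3CSK4 3 h replicate 3 (0.22, adjusted p = 0.117).

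Of the transporter genes, Slc3a2 rose in each treated group and Slc7a5 with AmTARS at 3 h. Slc3a2 encodes the heavy chain (CD98) that carries several amino acid transporters to the cell surface, and Slc7a5 encodes LAT1, a light chain that imports leucine and other large neutral amino acids. Slc3a2 (chromosome 19, 8706882 to 8723369) was at 368 and 372 CPM in control, 410 and 426 with AmTARS at 1 h, 451 and 443 at 3 h, 425 and 421 with Pam3CSK4 at 1 h, and 474 and 525 at 3 h. Each treated library was above both control libraries, and the Pam3CSK4 3 h libraries were the highest. The changes were 0.18 and 0.27 for AmTARS at 1 h and 3 h, and 0.19 and 0.43 for Pam3CSK4 (SE 0.05 each, adjusted p = 0.00732, 2.94e-04, 0.00267 and 4.94e-07). All 4 stayed past the threshold after the length and GC correction, at 0.13, 0.22, 0.13 and 0.39. The 1 h calls were lost with quantile scaling (0.05 and 0.07), and that of AmTARS at 1 h also without AmTARS 1 h replicate 3 (adjusted p = 0.0788), without control replicate 2 (adjusted p = 0.0623) and with equal totals over the listed genes (0.11, adjusted p = 0.0528).

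Slc7a5 (chromosome 8, 121881150 to 121907694) was at 8.74 and 7.82 CPM in control, 8.03 and 9.19 with AmTARS at 1 h, 10.3 and 10.2 at 3 h, 9.81 and 8.41 with Pam3CSK4 at 1 h, and 8.64 and 9.13 at 3 h. Both AmTARS 3 h libraries lay above both control libraries, with a rise of 0.28 (SE 0.09, adjusted p = 0.0225), and 0.25 after the length and GC correction (adjusted p = 0.0458). The other 3 changes were 0.05, 0.12 and 0.09, with overlapping libraries. The difference of AmTARS minus Pam3CSK4 at 3 h was 0.19 (95% CI -0.00 to 0.38, adjusted p = 0.190), so Slc7a5 was not shown to differ between the ligands. The AmTARS call was lost without AmTARS 3 h replicate 1 (adjusted p = 0.111), AmTARS 3 h replicate 3 (adjusted p = 0.0720) or control replicate 3 (0.21, adjusted p = 0.180), and with equal totals (adjusted p = 0.0711).

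Among the biosynthetic enzymes, Asns rose and Psat1 fell with Pam3CSK4 at 3 h, and neither passed the test in the other comparisons with control. Asns (chromosome 6, 7675169 to 7693254) encodes asparagine synthetase, which makes asparagine from aspartate and glutamine. It was at 11.3 and 12.7 CPM in control, 13.3 and 12.4 with AmTARS at 1 h, 14.8 and 13.4 at 3 h, 12.9 and 13.2 with Pam3CSK4 at 1 h, and 13.4 and 15.4 at 3 h. It rose with Pam3CSK4 at 3 h by 0.24 (SE 0.09, adjusted p = 0.0259). With AmTARS at 3 h the change of 0.22 missed the threshold (95% CI 0.04 to 0.40, adjusted p = 0.0545), and it was called under 8 of 23 alternatives. The corrected 3 h changes were 0.13 and 0.14, and neither was called. The Pam3CSK4 call was also lost without Pam3CSK4 3 h replicate 3 (0.15, adjusted p = 0.275), without control replicate 2 (0.16, adjusted p = 0.246) and with equal totals (0.16, adjusted p = 0.129).

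Psat1 (chromosome 19, 15904678 to 15947337) encodes phosphoserine aminotransferase, a step of serine synthesis. It was at 13.4 and 14.0 CPM in control, 12.5 and 13.0 with AmTARS at 1 h, 11.2 and 12.5 at 3 h, 13.1 and 13.1 with Pam3CSK4 at 1 h, and 11.8 and 11.3 at 3 h. All treated libraries were below both control libraries. It fell with Pam3CSK4 at 3 h by 0.23 (SE 0.08, adjusted p = 0.0211), and the value for AmTARS at 3 h was -0.20 (95% CI -0.36 to -0.03, adjusted p = 0.0559). Once corrected, both were called, at -0.23 (adjusted p = 0.0316) and -0.27 (adjusted p = 0.00635). The Pam3CSK4 call was lost without Pam3CSK4 3 h replicate 3 or control replicate 3 (-0.19 and -0.20, adjusted p = 0.121 in both cases).

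Chac1 had the largest fold changes of the 10 genes at 3 h. It encodes an enzyme that breaks down glutathione (chromosome 2, 119351229 to 119354381). It was at 1.86 and 1.73 CPM in control, 2.47 and 2.23 with AmTARS at 1 h, 3.83 and 2.65 at 3 h, 2.33 and 2.42 with Pam3CSK4 at 1 h, and 3.85 and 3.69 at 3 h. Each treated library was above both control libraries, and the AmTARS 3 h libraries stood far apart from each other. It rose at 3 h, by 0.59 (SE 0.13, adjusted p = 0.00135) with AmTARS and 0.77 (SE 0.13, adjusted p = 4.29e-05) with Pam3CSK4. At 1 h it did not pass, at 0.26 and 0.27 (adjusted p = 0.107 and 0.0761). The corrected 3 h changes were 0.40 and 0.58, both called, and the 1 h changes were 0.05 and 0.00. Without AmTARS 3 h replicate 1, the higher of the AmTARS 3 h libraries, the AmTARS change was 0.39 (adjusted p = 0.0598), while the Pam3CSK4 call held under each of 22 alternatives.

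Sesn2 and Ddit4 encode inhibitors of mTORC1: Sestrin-2 binds leucine and acts through the GATOR complexes, and Ddit4 (REDD1) acts through the TSC complex. Sesn2 fell at 1 h, and Ddit4 rose in 3 of the 4 treated groups. Sesn2 (chromosome 4, 132492032 to 132510501) was at 19.3 and 18.0 CPM in control, 14.5 and 16.2 with AmTARS at 1 h, 16.9 and 19.6 at 3 h, 13.7 and 16.9 with Pam3CSK4 at 1 h, and 17.2 and 18.4 at 3 h. It fell at 1 h, by 0.27 (SE 0.09, adjusted p = 0.0280) with AmTARS and by 0.28 (SE 0.09, adjusted p = 0.0179) with Pam3CSK4. At 3 h the libraries overlapped with control, at -0.04 (95% CI -0.23 to 0.16) and -0.07 (95% CI -0.26 to 0.13). The difference between 3 h and 1 h missed the threshold for both ligands (0.23 and 0.21, adjusted p = 0.285 and 0.0883). The corrected 1 h changes were -0.33 and -0.35, both called. With no intensity trend neither 1 h call held (adjusted p = 0.0723 and 0.0513). The AmTARS call was lost without AmTARS 1 h replicate 2 (-0.19, adjusted p = 0.221) or either control library (adjusted p = 0.183 and 0.0501), and the Pam3CSK4 call without Pam3CSK4 1 h replicate 1 (-0.14, adjusted p = 0.312) or control replicate 2 (-0.23, adjusted p = 0.133).

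Ddit4 (chromosome 10, 59949669 to 59951834) was at 17.4 and 14.6 CPM in control, 17.3 and 19.1 with AmTARS at 1 h, 19.4 and 19.3 at 3 h, 19.1 and 20.2 with Pam3CSK4 at 1 h, and 23.5 and 25.4 at 3 h. The Pam3CSK4 3 h libraries were above all others. It rose by 0.26 with AmTARS at 3 h (SE 0.08, adjusted p = 0.0156), 0.28 with Pam3CSK4 at 1 h (adjusted p = 0.00686) and 0.58 with Pam3CSK4 at 3 h (adjusted p = 7.16e-06). With AmTARS at 1 h it did not pass (0.18, adjusted p = 0.0889), though without control replicate 2 it did (0.30, adjusted p = 0.0245). The corrected 3 h change with Pam3CSK4 was 0.41 and still called, and the other changes were -0.03, 0.08 and 0.02. Without control replicate 3, the lower of the control libraries for this gene, the changes were 0.14 for AmTARS at 3 h and 0.16 for Pam3CSK4 at 1 h, and neither was called (adjusted p = 0.257 and 0.161). The AmTARS 3 h call was also lost without either of its own libraries (adjusted p = 0.0853 and 0.0558) and with equal totals (adjusted p = 0.0701), and the Pam3CSK4 1 h call without Pam3CSK4 1 h replicate 3 (adjusted p = 0.0516).

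**Figure D2:**
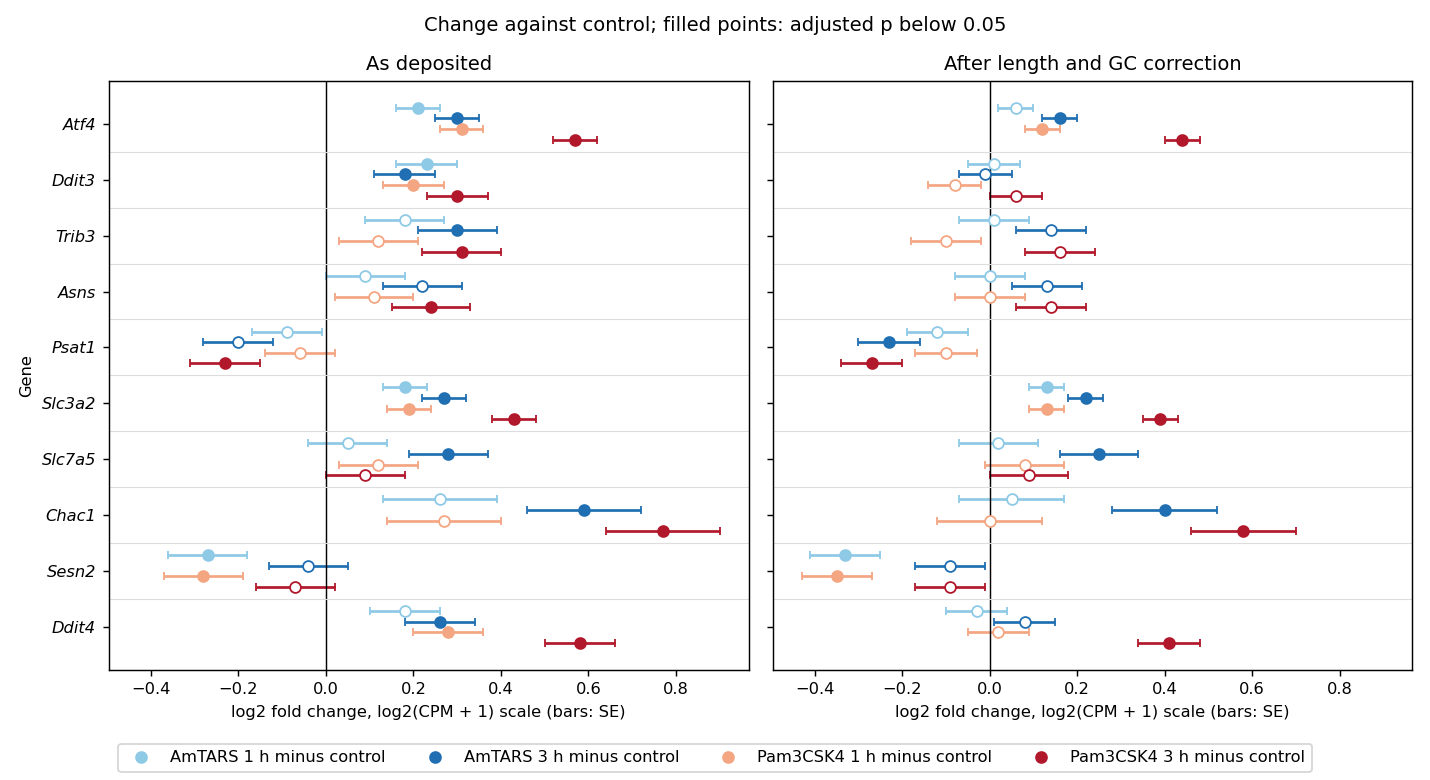
Log2 fold change of each gene against control in the 4 treated groups, as deposited (left) and after the length and GC correction (right); bars are SE and filled points have an adjusted p below 0.05 in limma. Atf4, Slc3a2, Ddit4 and Chac1 keep their calls for Pam3CSK4 at 3 h in the right panel, where the 4 Ddit3 points lie between -0.08 and 0.06.

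Counted over the 10 genes, 3 rose and 1 fell with AmTARS at 1 h, while 18.9% of all genes tested rose and 19.8% fell. With AmTARS at 3 h 7 rose and 0 fell (18.8% and 17.9% of all genes), with Psat1 lower at an unadjusted p of 0.0210. With Pam3CSK4 at 1 h 4 rose and 1 fell (23.9% and 24.8%), and with Pam3CSK4 at 3 h 7 rose and 1 fell (24.7% and 24.2%). The median change of the 10 genes was 0.18, 0.27, 0.16 and 0.30 in these comparisons, against medians of all genes between -0.01 and 0.00. The 4 comparisons share the control libraries. The share of the 10 genes that rose was thus nearer to that of all genes at 1 h than at 3 h, a comparison made without a test.

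Corrected for length and GC, the genes that rose numbered 1, 4, 2 and 4 for AmTARS at 1 h and 3 h and Pam3CSK4 at 1 h and 3 h, against 9.98%, 12.3%, 14.2% and 21.5% of all genes. Those that fell numbered 1 in each, against 7.14%, 8.96%, 13.6% and 21.6%, and were Sesn2 at 1 h and Psat1 at 3 h. The medians of the 10 genes were then 0.01, 0.14, -0.00 and 0.15. At 3 h the corrected rises were those of Atf4, Slc3a2, Slc7a5 and Chac1 with AmTARS and of Atf4, Slc3a2, Chac1 and Ddit4 with Pam3CSK4. Single libraries moved these counts as deposited: the 7 rises with AmTARS at 3 h became 2 without AmTARS 3 h replicate 1 and 4 without control replicate 3. The 4 calls with AmTARS at 1 h became 1 without AmTARS 1 h replicate 2 and 2 without either control library. The 5 calls with Pam3CSK4 at 1 h became 3 without Pam3CSK4 1 h replicate 1 or control replicate 3, and the 8 calls with Pam3CSK4 at 3 h became 5 without Pam3CSK4 3 h replicate 3. Of the calls over all genes, 48.9%, 51.3%, 49.1% and 50.4% were rises in the 4 comparisons as deposited, and 30.4%, 31.3%, 34.5% and 32.3% when each library was scaled to 1 total over the listed genes, which moved the median of all genes by -0.06 to -0.09.

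**Figure D3:**
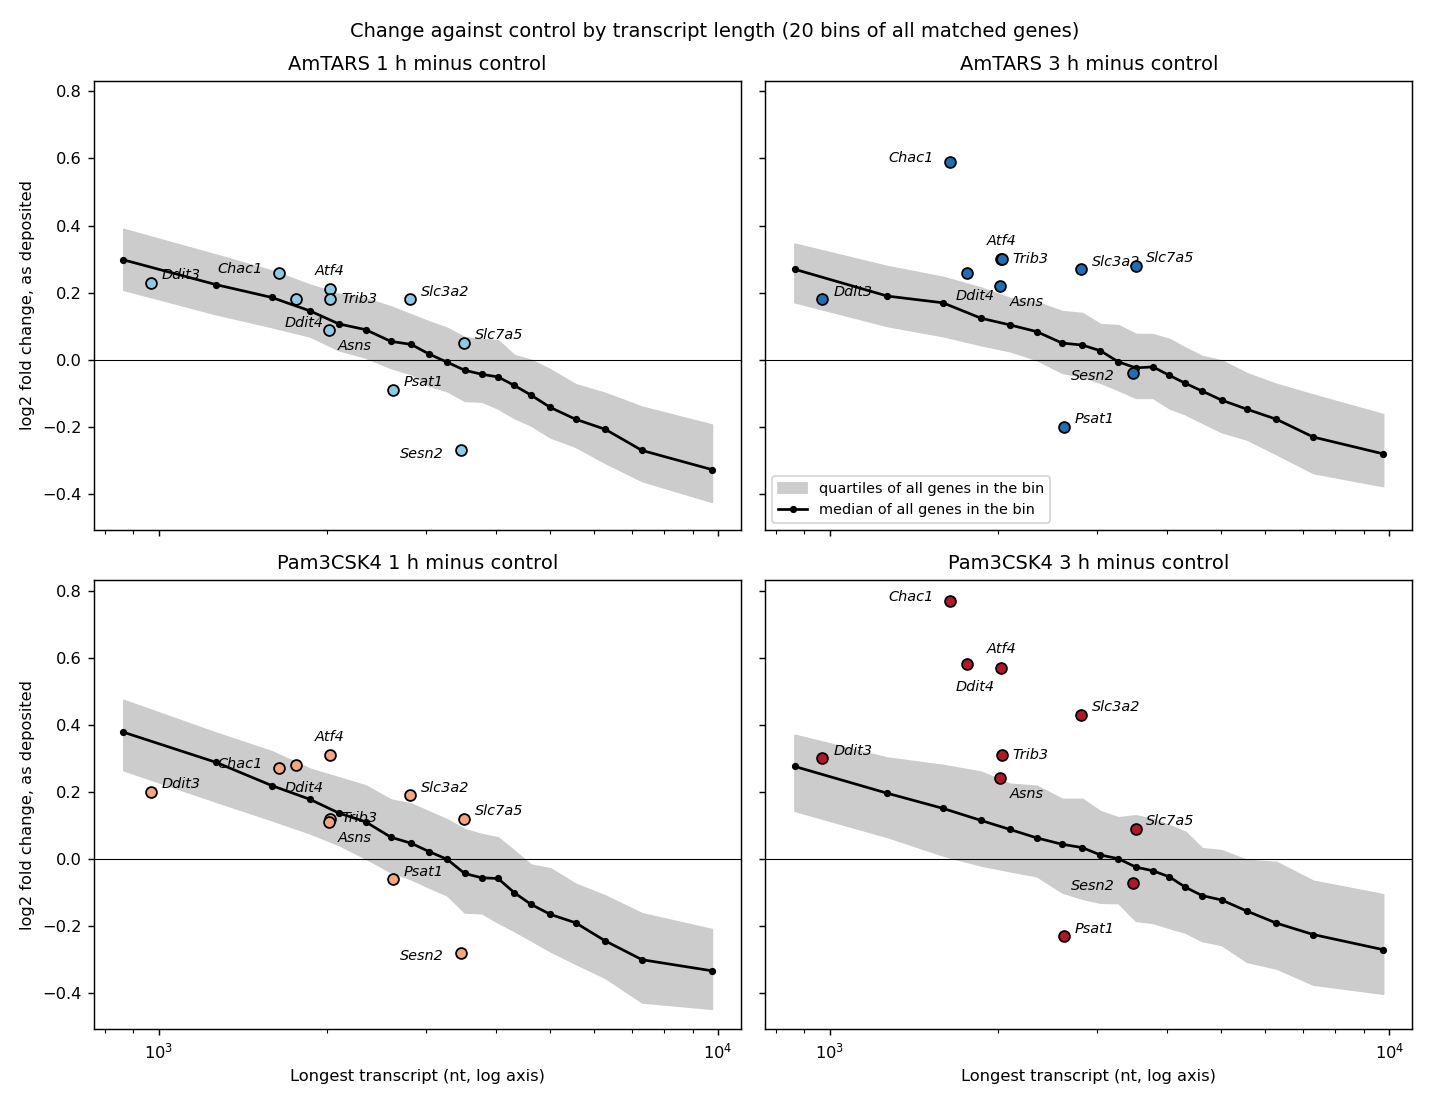
Log2 fold change against control as deposited, plotted against the longest transcript (nt, log axis) for the 10 genes (points) and for all matched genes in 20 bins of equal gene number (line: median; grey: quartiles). Atf4, Trib3, Slc3a2, Chac1 and Ddit4 lie above the grey band in both 3 h panels and Psat1 below it. Asns lies above it with AmTARS at 3 h and near its upper edge with Pam3CSK4 at 3 h. Slc7a5 lies above it at 3 h with AmTARS but not with Pam3CSK4. Sesn2 lies below it in both 1 h panels.

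From 1 h to 3 h of Pam3CSK4, 4 of the 10 genes rose (16.2% of all genes did): Chac1 by 0.50 (SE 0.13, adjusted p = 0.00457), Ddit4 by 0.30 (SE 0.08, adjusted p = 0.00752), Atf4 by 0.26 (SE 0.05, adjusted p = 5.12e-04) and Slc3a2 by 0.24 (SE 0.05, adjusted p = 7.38e-04). For Ddit4 the call was lost without Pam3CSK4 1 h replicate 1 or Pam3CSK4 3 h replicate 3 (adjusted p = 0.0701 and 0.0725). Sesn2 and Trib3 were at 0.21 and 0.19 and did not pass as deposited, but were called after the length and GC correction (0.26 each, adjusted p = 0.0171 and 0.0174), and Sesn2 also without Pam3CSK4 1 h replicate 3 (0.35, adjusted p = 0.0123).

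From 1 h to 3 h of AmTARS, none of the 10 genes passed in limma, and 2.38% of all genes did in either direction. At an unadjusted p below 0.05 there were 3, Chac1 at 0.33, Slc7a5 at 0.23 and Sesn2 at 0.23, and limma with voom on the recovered reads called 0. Atf4 was at 0.09 (95% CI -0.02 to 0.20). The difference between the ligands' time courses was not past the threshold for any of the 10 genes (9.20% of all genes passed in either direction), with 1 at an unadjusted p below 0.05, Atf4 at -0.17 (adjusted p = 0.163), and 0 called by voom. The corrected values of Atf4 (-0.22, adjusted p = 0.0180) and Slc3a2 (-0.18, adjusted p = 0.0436) did pass. Both also passed without Pam3CSK4 3 h replicate 2 (adjusted p = 0.0376 and 0.0267).

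The series was made to set AmTARS beside Pam3CSK4 as ligands of TLR2. At 3 h, 3 of the 10 genes were lower with AmTARS than with Pam3CSK4, and 9.08% of all genes were. Ddit4 differed by -0.32 (SE 0.08, 95% CI -0.49 to -0.15, adjusted p = 0.00778), Atf4 by -0.27 (SE 0.05, 95% CI -0.38 to -0.17, adjusted p = 5.55e-04) and Slc3a2 by -0.16 (SE 0.05, 95% CI -0.26 to -0.06, adjusted p = 0.0267). For each of them both AmTARS libraries were below both Pam3CSK4 libraries. The differences were alike after the length and GC correction, at -0.32, -0.28 and -0.18, and transcript length bore little relation to this contrast (rho -0.00965 across genes). Atf4 kept its call under each of 23 alternatives. Ddit4 lost it without Pam3CSK4 3 h replicate 3 (-0.27, adjusted p = 0.0966), and Slc3a2 without that library (-0.09, adjusted p = 0.332), without either AmTARS 3 h library (adjusted p = 0.0932 and 0.166), with quantile scaling (-0.08, adjusted p = 0.166) and with other estimates of the spread (adjusted p = 0.0817 and 0.119).

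The other 7 genes did not pass at 3 h. Their intervals were narrowest for Ddit3, -0.12 (95% CI -0.25 to 0.02), and widest for Chac1, -0.18 (95% CI -0.45 to 0.08). Trib3, Asns, Sesn2 and Psat1 were at -0.01, -0.02, 0.03 and 0.03. At 1 h none of the 10 genes differed between the ligands in limma, with 0 at an unadjusted p below 0.05 and 0 by voom. Of all genes 0.184% did in either direction. Atf4 was at -0.10 (95% CI -0.21 to 0.01) and Ddit4 at -0.11 (95% CI -0.28 to 0.06). As a measure of the strength of each treatment, Tnf, the gene of tumour necrosis factor, rose by 1.48 and 1.02 with AmTARS at 1 h and 3 h and by 2.75 and 3.07 with Pam3CSK4 (log2, SE 0.07 each), and was lower with AmTARS than with Pam3CSK4 by a change of -1.27 at 1 h and -2.05 at 3 h (adjusted p = 6.59e-10 and 1.68e-13 in limma). With doses on different scales, a difference of ligand and a difference of strength cannot be told apart.

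**Figure D4:**
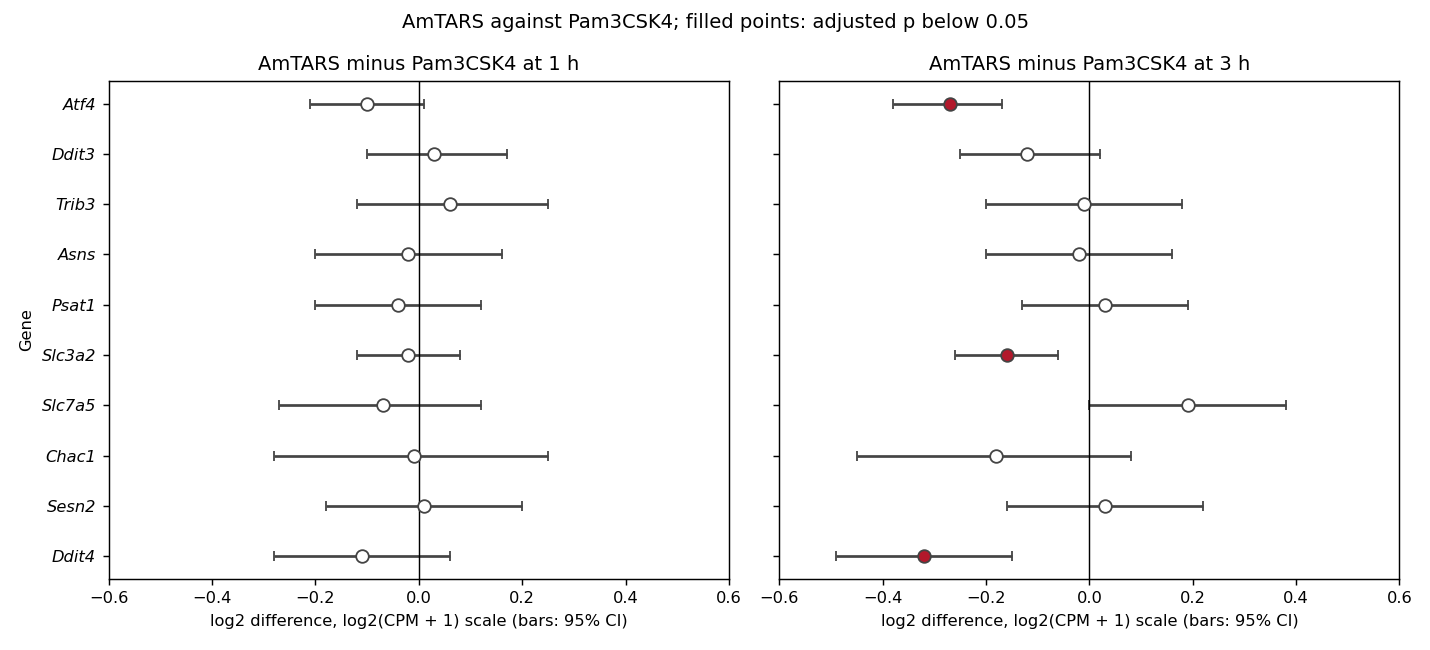
Log2 difference of AmTARS minus Pam3CSK4 for the 10 genes at 1 h (left) and 3 h (right); bars are 95% confidence intervals and filled points have an adjusted p below 0.05 in limma. At 1 h the intervals of all 10 genes include 0; at 3 h those of Atf4, Slc3a2 and Ddit4 lie below 0.

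In 7 other lists of the pathway, 104 genes were tested, and counts and values are given in the order AmTARS at 1 h, AmTARS at 3 h, Pam3CSK4 at 1 h and Pam3CSK4 at 3 h, all against control. Beside the counts stand the shares of all genes that rose (18.9%, 18.8%, 23.9% and 24.7%) and fell (19.8%, 17.9%, 24.8% and 24.2%), or, after the length and GC correction, rose (9.98%, 12.3%, 14.2% and 21.5%) and fell (7.14%, 8.96%, 13.6% and 21.6%). Of the 195 calls in these lists, 108 were lost under the correction and 94 when 1 library or another was left out. Upstream of ATF4, of 14 genes of the eIF2 kinases and of eIF2 control, 2, 2, 3 and 4 rose and 6, 5, 6 and 5 fell. The corrected counts were 1, 1, 2 and 3 rises and 2, 3, 2 and 4 falls. Ppp1r15a, the stress-induced subunit of the phosphatase that reverses eIF2 phosphorylation, rose by 0.35, 0.27, 0.61 and 0.68 (SE 0.06 each), and was lower with AmTARS than with Pam3CSK4 at 3 h (-0.41, adjusted p = 7.34e-05). Without control replicate 3 its AmTARS 3 h change was not called (0.21, adjusted p = 0.0529). Eif2ak2, the kinase PKR that senses double-stranded RNA, fell by 0.35, 0.33, 0.40 and 0.18, and Eif2ak4, the amino acid sensor GCN2, by 0.27, 0.37, 0.28 and 0.52. The corrected changes were -0.25, -0.25, -0.27 and -0.11 for Eif2ak2, with the last not called, and -0.11, -0.24, -0.10 and -0.37 for Eif2ak4, called at 3 h. Eif2ak3, the kinase PERK of the endoplasmic reticulum, fell by 0.43 with Pam3CSK4 at 3 h (-0.33 corrected, called) and was at -0.10, -0.10 and -0.06 in the other comparisons.

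Of 8 bZIP transcription factors of the kind that pair with ATF4 or act beside it, 4, 4, 4 and 5 rose and 0, 0, 1 and 3 fell. After the correction the counts were 3, 3, 2 and 4 rises and 1, 2, 2 and 2 falls. Cebpb, the gene of C/EBP-beta, rose by 0.67, 0.66, 0.81 and 0.96 (SE 0.06 each), or 0.35, 0.40, 0.42 and 0.70 after the correction. Cebpd rose by 0.48, 0.34, 0.44 and 0.94, and was lower with AmTARS than with Pam3CSK4 at 3 h (-0.60, adjusted p = 6.50e-07). Nfe2l2, the gene of the oxidative stress factor NRF2, rose by 0.13 with AmTARS at 3 h, where the correction ended the call (0.09), and by 0.64 with Pam3CSK4 at 3 h, a difference between the ligands of -0.51 (adjusted p = 7.37e-08). With quantile scaling its AmTARS 3 h value was -0.02. Atf5, itself a target of ATF4, rose by 0.30, 0.21, 0.33 and 0.21, and was at 0.07, 0.01, 0.04 and 0.01, none called, after the correction. Atf3, another target, was at 0.01, -0.02 and -0.09 in the first 3 comparisons, none called, and fell by 0.24 with Pam3CSK4 at 3 h. Its corrected changes were -0.11, -0.13, -0.25 and -0.36, all called, so that its sign with AmTARS at 1 h depended on the correction.

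Of 19 other amino acid targets of ATF4 16 were tested, and 2, 3, 2 and 3 rose and 3, 1, 4 and 5 fell. Corrected, the counts were 0, 1, 0 and 4 rises and 0, 1, 0 and 3 falls. Slc7a11, the cystine importer, fell at 1 h with both ligands (-0.27 and -0.28) and rose at 3 h, by 0.26 with AmTARS and 1.65 with Pam3CSK4 (SE 0.07 each), a difference between the ligands of -1.39 (adjusted p = 3.62e-11). After the correction the 1 h values were 0.04 and 0.09, not called, and the 3 h rises 0.54 and 1.88. The AmTARS 3 h call was lost without AmTARS 3 h replicate 3 or control replicate 2 (adjusted p = 0.0637 and 0.129), and the gene is a known target of NRF2 as well as ATF4. Mthfd2, a mitochondrial folate enzyme, rose by 0.20 with AmTARS and 0.52 with Pam3CSK4 at 3 h, of which the second held after the correction (0.11 and 0.43). It was lower with AmTARS than with Pam3CSK4 at 3 h (-0.32, adjusted p = 0.00240), a call lost without AmTARS 3 h replicate 1 (-0.24, adjusted p = 0.0812). Phgdh, the first enzyme of the serine pathway in which Psat1 acts next, rose by 0.40, 0.27, 0.41 and 0.40, though after the correction only the last was called (0.25, adjusted p = 0.0146). Slc38a2, a glutamine transporter, fell by 0.27, 0.42, 0.19 and 0.24, and its corrected changes were -0.05, -0.24, 0.07 and -0.08, of which the second was called. Aldh1l2, another folate enzyme, fell by 0.33, 0.42 and 0.29 with AmTARS at 1 h and with Pam3CSK4 at 1 h and 3 h, and Slc7a1, a transporter of basic amino acids, by 0.41 with Pam3CSK4 at 1 h, and none of these calls held after the correction.

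Of the 11 stress and signalling targets tested, 6, 4, 6 and 5 rose and 2, 1, 3 and 1 fell. The corrected counts were 4, 4, 5 and 6 rises and 0, 0, 0 and 1 falls. Gdf15, a secreted stress hormone, rose by 0.54, 0.57, 0.80 and 1.15 (SE 0.08 each), and by 0.28, 0.35, 0.47 and 0.92, all called, after the correction. Nupr1, a stress-induced nuclear protein, rose by 0.22, 0.23, 0.37 and 0.74, with the AmTARS calls lost after the correction (0.16 and 0.17). Eif4ebp1, a repressor of cap-dependent translation, rose by 0.29, 0.30, 0.38 and 0.39, all called after the correction too. Ero1l, an oxidase of the endoplasmic reticulum, was at -0.10 and 0.12 with AmTARS, fell by 0.18 with Pam3CSK4 at 1 h and rose by 0.56 at 3 h; its corrected changes were -0.00, 0.22, -0.04 and 0.63, called at 3 h. At 3 h, 5 of the 11 were lower with AmTARS than with Pam3CSK4 (9.08% of all genes), among them Gdf15 at -0.57, Nupr1 at -0.51 and Ero1l at -0.44. Vldlr fell by 0.37, 0.33 and 0.35 with AmTARS at 1 h and with Pam3CSK4 at 1 h and 3 h, and none of these calls held after the correction. Kdm7a fell by 0.37 in each of the first 3 comparisons, also lost after the correction, and was at -0.04 with Pam3CSK4 at 3 h, where the corrected value was 0.19 and called.

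**Figure D5:**
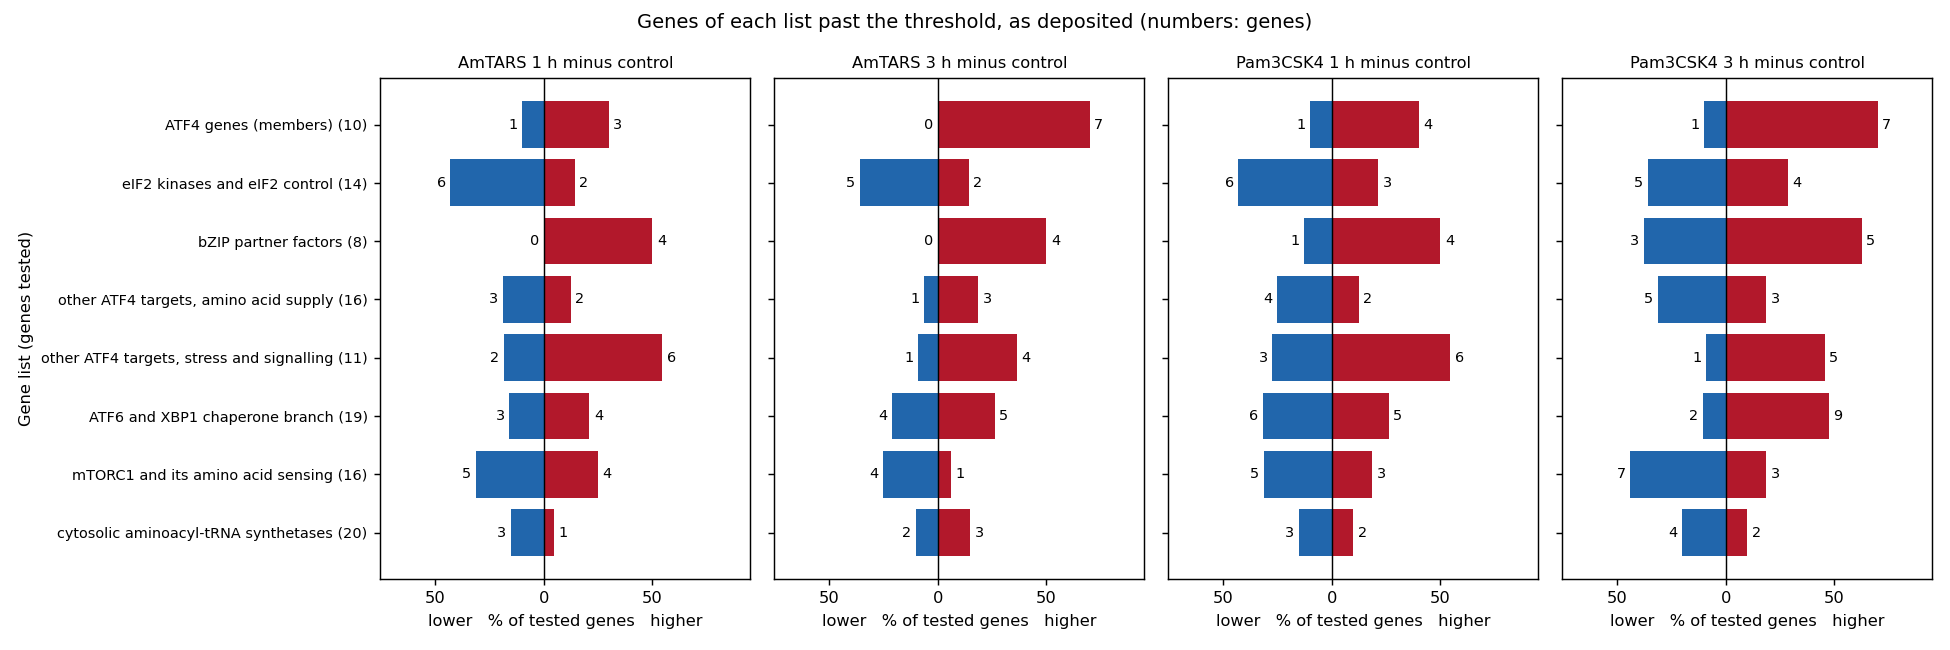
Share of the tested genes of each list that rose (right, red) or fell (left, blue) against control at an adjusted p below 0.05 in limma, as deposited, in the 4 treated groups; numbers are genes and the number tested is given with each list. Among the 8 lists the 10 ATF4 genes have 7 rises in both 3 h groups, and the eIF2 list has more falls than rises in each group as deposited, though not after the correction for Pam3CSK4 at 1 h (2 and 2).

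The chaperone branch of the unfolded protein response runs mainly through ATF6 and XBP1. It gave 4, 5, 5 and 9 rises and 3, 4, 6 and 2 falls of 19. After the correction the counts were 1, 2, 2 and 8 rises and 1, 1, 4 and 4 falls. Herpud1, of the degradation machinery of the endoplasmic reticulum, rose by 0.27 with AmTARS at 3 h, a call lost after the correction (0.14), and by 1.01 (SE 0.06) with Pam3CSK4 at 3 h, a difference between the ligands of -0.74 (adjusted p = 1.31e-08). Manf, a secreted factor of the same compartment, rose by 0.25, 0.33, 0.36 and 0.55, with the first lost after the correction (0.16). Hspa5, the chaperone BiP, rose by 0.25 with Pam3CSK4 at 3 h, a call lost with quantile scaling (0.07), and was lower with AmTARS at that time (-0.23, adjusted p = 0.00294), a call lost without Pam3CSK4 3 h replicate 3 (-0.14, adjusted p = 0.0689). Ern1, the sensor IRE1 that splices Xbp1, fell by 0.66, 0.56, 0.73 and 0.52, or by 0.42, 0.36, 0.47 and 0.31 after the correction. Atf6, the sensor of the other arm, fell by 0.26, 0.28, 0.37 and 0.39, and its corrected changes were 0.01, -0.05, -0.07 and -0.18, of which the last was called. Creld2 rose by 0.20, 0.28, 0.28 and 0.48, of which the last held after the correction (0.28). Sdf2l1 rose by 0.26, 0.20, 0.23 and 0.17, and its corrected changes had the other sign and were not called. Sel1l fell by 0.27, 0.21 and 0.30 in the first 3 comparisons, and none of these calls held after the correction.

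The list of mTORC1 and its amino acid sensing holds the complex that Sesn2 and Ddit4 restrain together with its activators and inhibitors. It gave 4, 1, 3 and 3 rises and 5, 4, 5 and 7 falls of 16 genes tested. Corrected, the counts were 2, 2, 3 and 2 rises and 1, 1, 3 and 6 falls. Sesn1, a relative of Sesn2, fell by 0.76 (SE 0.06) with Pam3CSK4 at 3 h and was higher with AmTARS at that time (0.74, adjusted p = 2.65e-08). Tsc1, of the complex through which Ddit4 acts, fell by 0.41, 0.42, 0.45 and 0.37, and by 0.21, 0.17 and 0.15 in the last 3 after the correction, while the first was no longer called (-0.16). Mtor fell by 0.33, 0.25, 0.35 and 0.28, and its corrected changes were -0.08, -0.04, -0.08 and -0.05, none called. The cytosolic aminoacyl-tRNA synthetases, several of which are ATF4 targets, gave 1, 3, 2 and 2 rises and 3, 2, 3 and 4 falls of 20. The corrected counts were 1, 1, 1 and 3 rises and 0, 1, 2 and 3 falls. Iars fell by 0.25, 0.29, 0.34 and 0.38, the first not called after the correction (-0.15, adjusted p = 0.0572) or without control replicate 2 (adjusted p = 0.0838). Hars rose by 0.16, 0.19, 0.17 and 0.34, of which the last held after the correction (0.24).

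The genes whose levels ran most like each of the 10 over the 10 libraries were taken by Pearson's r of the log2 values, as a description without a test. These libraries share 5 groups of 2. The 3 most like Atf4 were Saa3, Slc6a13 and Mmadhc (r = 0.99 each, and 0.94, 0.99 and 0.88 after the length and GC correction). Those most like Slc3a2 were Spi1, Eif6 and Limd2 (r = 0.99 each, and 0.98, 0.97 and 0.98). Those most like Ddit4 were Ppp2r5b, Asb6 and Asprv1 (r = 0.97 each, and 0.97, 0.83 and 0.94), and those most like Chac1 were Ifngr1, Dok2 and Tagln2 (r = 0.95, 0.95 and 0.92, and 0.93, 0.93 and 0.89). Sesn2 ran with Tsku (r = 0.97, and 0.98 after the correction), and Slc7a5 with Oasl1 and Tap1 (r = 0.92 and 0.89, and 0.86 and 0.84). For Ddit3 the likeness to Sfn went from 0.97 to 0.83 with the correction, and for Psat1 that to Gon4l from 0.97 to 0.42. None of the 10 genes was among the 3 most like any other. Chac1, at a mean of 2.71 CPM, could not be, because only genes with a mean of 5 CPM or more were eligible.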

How the data were processed

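Each RNA sample was made into a poly-A, stranded library. The submitters' processing notes name STAR 2.5.1, mm10 and R 3.3.0; which counter and annotation served is not given in the sources used here. What the authors deposited are log2(CPM + 1) values. With 1 factor per library, 100% of them came out as whole reads within 0.1 read, and voom in limma on those reads, an alternative, called 4425, 4263, 5424 and 5651 genes against control. limma 3.58.1 (R 4.3.3) was fitted to the log2 values of 11407 genes (mean of 1 CPM or more), with 1 mean per group and an intensity trend (residual df 5, prior df 14.7), and Benjamini-Hochberg adjustment was done separately for each of 9 contrasts. The correction removed natural splines (5 df each) of log2 length and GC content of the longest GENCODE M21 transcript, for 11367 matched genes. From each other list, in each comparison, up to 3 genes with the largest change among those called could be named; Atf3, Cebpb, Ppp1r15a, Hspa5 and Eif2ak3 could always be named, and for each of the 10 genes the 3 with the highest r (mean of 5 CPM or more). The members and lists were chosen with earlier results of these data known. The calculation was tested on simulated data. Alternatives were other filters, pseudocounts of 0.25 and 5, other scalings and spread estimates, voom, the correction, a replicate block and leaving out each library, where the lone library of a group is assumed to vary like the others; the fit on matched genes without the correction was chosen after seeing the data. A result of the likeness comparison is not reported here.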

Additional observations from a re-analysis of the deposited data

How the results depend on the processing

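Counts of the 10 ATF4 genes called (higher and lower together) are given as reported, then under the alternatives that moved them by over 1.5 times. For AmTARS at 1 h the count was 4, with 2 under equal totals and 2 under the length and GC correction, and 1 to 4 when single libraries were left out. For AmTARS at 3 h it was 7, and 2 to 8 with single libraries left out. For Pam3CSK4 at 1 h it was 5, with 3 under the correction and 3 to 5 with single libraries left out. For Pam3CSK4 at 3 h it was 8, with 5 under the correction and 5 to 8 with single libraries left out. For AmTARS against Pam3CSK4 at 3 h it was 3, and 1 to 3 with single libraries left out. For ligand by time it was 0, with 2 under the correction and 0 to 2 with single libraries left out. Changes of sign are listed only where the value was called as reported or under the alternative. Among the 10 genes that was Ddit3 under the correction (-0.01 for AmTARS at 3 h and -0.08 for Pam3CSK4 at 1 h). Left out are changes of sign with neither value called, such as Trib3 with Pam3CSK4 at 1 h (0.12 and -0.10) and Ddit4 with AmTARS at 1 h (0.18 and -0.03). Of the other lists only genes that could be named were looked at, and under the correction these changed sign. With AmTARS at 1 h they were Atf3 (-0.11), Atf6 (0.01), Cebpa (-0.02), Creld2 (-0.02), Depdc5 (0.05), Ppp1r15b (0.03), Sdf2l1 (-0.02) and Slc7a11 (0.04). With AmTARS at 3 h they were Ppp1r15b (0.02) and Sdf2l1 (-0.04). With Pam3CSK4 at 1 h they were Cebpa (-0.03), Creld2 (-0.01), Depdc5 (0.02), Kdm7a (0.01), Ppp1r15b (0.08), Sdf2l1 (-0.12), Slc38a2 (0.07) and Slc7a11 (0.09). With Pam3CSK4 at 3 h they were Kdm7a (0.19) and Sdf2l1 (-0.08). Nfe2l2 with AmTARS at 3 h was at -0.02 with quantile scaling. Over all genes, the counts that moved by over 1.5 times were these. AmTARS at 1 h had 4415 calls, with 1946 under the correction and 2603 without control replicate 2. AmTARS at 3 h had 4186, with 2417 under the correction; leaving out AmTARS 3 h replicate 1 gave 1997, and leaving out control replicate 2 gave 2313. Pam3CSK4 at 1 h had 5556, with 3160 under the correction. AmTARS against Pam3CSK4 at 1 h had 21, with 42 when only the groups compared were fitted and 33 and 34 without Pam3CSK4 3 h replicate 2 or 3. The same at 3 h had 1953, with 1193 without AmTARS 3 h replicate 1 and 1141 without Pam3CSK4 3 h replicate 3. AmTARS at 3 h against 1 h had 271, with 492 when only these groups were fitted, 63 with no intensity trend, 447 under the correction and 89 to 158 without 1 of its libraries. Pam3CSK4 at 3 h against 1 h had 3597, with 2381 without Pam3CSK4 1 h replicate 1. Ligand by time had 1049, with 680 with no intensity trend and 675 without AmTARS 3 h replicate 1. The cause of these shifts was not tested. Chac1 has no value with a mean of at least 5 CPM, and the fit of only the groups compared was not run for ligand by time. Chac1, Trib3 and Slc7a5 are limited by reads.

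Replicate numbers are shared by some groups. The correlation of their differences between replicates was -0.18 for control and AmTARS at 1 h and 0.12 for control and Pam3CSK4 at 3 h. It was -0.04 for AmTARS at 1 h and Pam3CSK4 at 3 h, and 0.20 for AmTARS at 3 h and Pam3CSK4 at 1 h. No label says whether samples of the same number share a culture, animal or batch, and these values cannot decide it. With a replicate block the counts for AmTARS at 3 h and Pam3CSK4 at 1 h were 3 each. The AmTARS 3 h calls lost were those of Ddit3, Ddit4, Slc7a5 and Trib3 (adjusted p = 0.126, 0.0505, 0.194 and 0.185). Those lost for Pam3CSK4 at 1 h were Ddit3 and Sesn2 (adjusted p = 0.0627 and 0.130). The counts for the other comparisons stayed within 1.5 times. All genes called with the block numbered 2017 for AmTARS at 3 h and 672 for ligand by time.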
